A study of Mus musculus with 6 samples.

Results

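The immediate-early genes Fos, Fosb, Jun, Junb, Egr1, Egr2, Egr3, Nr4a1, Ier2 and Ier3 were followed in sham and tail-suspended mouse hearts. Each was read from the array probe that carries its name and is not a control. They are 10 of the 28909 gene names on the array, and 9 of them were among the 17140 genes tested. Each had 1 probe in 1 spot, except Fos, whose probe was printed in 10 spots per array. The mice were male C57BL/6, 3 sham and 3 tail-suspended for 28 days, kept in the same space with the same feeding. Tail-suspension lifts the hindlimbs off the floor to simulate microgravity. The labels give an age of 10 weeks at the start of suspension and also an age of 11 weeks, so the age at sampling is not settled. Total RNA of the tissue labelled cardiac muscle was hybridised in 1 colour to 6 Agilent arrays of 1 slide, scanned together. All 10 cardiomyocyte markers were well above background on all 6 arrays. No hour of sampling is given in the labels.

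Immediate-early genes are transcribed within minutes of a stimulus, because the factors that switch them on are already present in the cell. Serum response factor binds the CArG box in many of their promoters, and CREB binds the cyclic AMP response element. Their messages are short-lived. The proteins of Fos and Fosb pair with those of Jun and Junb to form AP-1, the EGR proteins are zinc finger factors, and Nr4a1 encodes an orphan nuclear receptor. In the heart they are known as early responders to stretch, adrenergic stimulation and angiotensin-II.

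The probe is the stretch of the message that the array measured, and the Junb, Ier2 and Egr3 probes are shown because they cover 3 of the outcomes described below: a rise that passed the test, a rise that did not, and a signal that stayed at background. The files place them on mm9, starting at base 677, 478 and 673 of their design transcripts.
Junb, chr8:87501881-87501940, minus strand: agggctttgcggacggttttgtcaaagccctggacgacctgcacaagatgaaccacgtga
Ier2, chr8:87186214-87186273, minus strand: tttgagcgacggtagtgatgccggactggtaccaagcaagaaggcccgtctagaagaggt
Egr3, chr14:70479222-70479281, plus strand: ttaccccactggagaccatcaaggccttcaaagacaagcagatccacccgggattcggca

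The files place the Fos probe at chr12:86817900-86817959 on the plus strand of mm9 and the Fosb probe at chr7:19888168-19888227 on the minus strand. The Jun probe lay at chr4:94716928-94716987 on the minus strand, the Egr2 probe at chr10:67004798-67004857 on the plus strand, the Nr4a1 probe at chr15:101105071-101105130 on the plus strand and the Ier3 probe at chr17:35959528-35959587 on the plus strand. Exon and UTR boundaries of mm9 were not used here.

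Promoter windows of RefSeq, on GRCm38.p6, were matched for 7 of the 10 members: Fos, Fosb, Jun, Junb, Egr2, Nr4a1 and Ier3. Both strands of the 250 bases before each start were searched. The last 150 bases before the start are shown for 6 members whose levels the results turn on, with each CArG box and each TGACG, the core of the cyclic AMP response element, in capitals on either strand. Egr2 has 5 listed starts, and the window with the most matches is shown.
Fos, chr12:85473740-85473889, plus strand: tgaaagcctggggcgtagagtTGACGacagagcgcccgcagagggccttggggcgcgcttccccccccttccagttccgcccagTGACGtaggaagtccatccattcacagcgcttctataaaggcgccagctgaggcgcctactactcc
Fosb, chr7:19310046-19310195, minus strand: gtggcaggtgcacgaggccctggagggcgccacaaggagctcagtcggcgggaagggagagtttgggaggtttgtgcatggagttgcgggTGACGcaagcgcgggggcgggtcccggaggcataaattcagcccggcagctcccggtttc
Junb, chr8:84978749-84978898, minus strand: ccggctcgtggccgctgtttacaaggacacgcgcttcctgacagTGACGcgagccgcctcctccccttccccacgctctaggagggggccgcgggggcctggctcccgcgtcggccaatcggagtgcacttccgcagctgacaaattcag
Nr4a1, chr15:101266696-101266845, plus strand: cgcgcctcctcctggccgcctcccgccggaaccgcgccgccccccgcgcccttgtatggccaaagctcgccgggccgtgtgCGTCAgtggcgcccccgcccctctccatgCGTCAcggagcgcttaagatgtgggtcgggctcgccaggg
Egr2, chr10:67537719-67537868, plus strand: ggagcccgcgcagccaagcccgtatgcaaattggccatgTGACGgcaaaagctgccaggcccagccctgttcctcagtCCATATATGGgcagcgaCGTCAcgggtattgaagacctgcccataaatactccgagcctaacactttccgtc
Ier3, chr17:35821563-35821712, plus strand: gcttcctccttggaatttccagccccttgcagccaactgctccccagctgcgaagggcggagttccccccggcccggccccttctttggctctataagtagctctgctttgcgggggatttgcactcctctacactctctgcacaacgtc

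TGACG was found in 5 of the 7 members, Fos, Fosb, Junb, Egr2 and Nr4a1, and in 17.8% of all 32851 windows of the table. A member was counted where any of its listed starts had a match, whereas the shares of all windows are per single window. In Fos TGACG began 129 and 66 bases before the start, in Fosb 60 and in Junb 106. Within the bases searched, a CArG box lay in Egr2 alone of the 7, and in 1.47% of all windows. Bases farther from a start were not searched, so a member without a match, such as Fos, may still have a CArG box there. The EGR site GCGNGGGCG was found in Fosb and Nr4a1, and in 4.7% of all windows. No member window held the full element TGACGTCA, which contains TGACG and was in 1.55% of windows, the AP-1 site TGACTCA or its reverse complement TGAGTCA, in 4.46%, or the NR4A site AAAGGTCA, in 1.34%. These matches describe letters within the windows.

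Levels were taken as log2 of the processed intensity, the brightness of a spot after background correction, relative to the 75th percentile of its array. That percentile lay between 302 and 376, and each array had 50.9% to 53.4% of its probes well above background. The limma test covered probes that rose well above background in all arrays of sham, of tail-suspension or of both. A gene was called changed at a Benjamini-Hochberg adjusted p under 0.05 over all 28032 tested probes. Sham 1 to 3 and tail-suspension 1 lay in the first row of the slide, and tail-suspension 2 and 3 in the second. The group and the row therefore partly coincide, and the value within the first row rests on tail-suspension 1 against the sham mean. Each difference below is tail-suspension minus sham on the log2 scale, n = 3 arrays per group. The smallest two-sided p of an exact permutation test was 0.1 here, and by the study's design each array is a separate mouse.

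Junb and Ier3 rose and Egr1 fell in the hearts of tail-suspended mice, whereas Fos, Fosb, Nr4a1, Jun, Egr2 and Ier2 did not pass the test. The call rate was 3 of 9 members, against 21.2% of all tested genes. By direction, 2 of 9 were called higher and 1 of 9 lower, where 10.6% of all genes were called higher and 10.5% lower. The groups did not overlap for 4 of 9 members, Junb, Ier2, Ier3 and Egr1, which is near the 46.5% of all tested genes. The median difference of the 9 members was 0.79, and that of all tested genes was -0.01. The members' median takes in both slide rows. Within the first row, tail-suspension 1 minus the sham mean was 0.08 for Fos, 0.33 for Fosb, 0.06 for Nr4a1, 0.17 for Ier2 and -0.000929 for Jun. The same value was 0.56 for Junb, 0.78 for Ier3, -0.50 for Egr1 and -1.14 for Egr2.

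**Figure D1:**
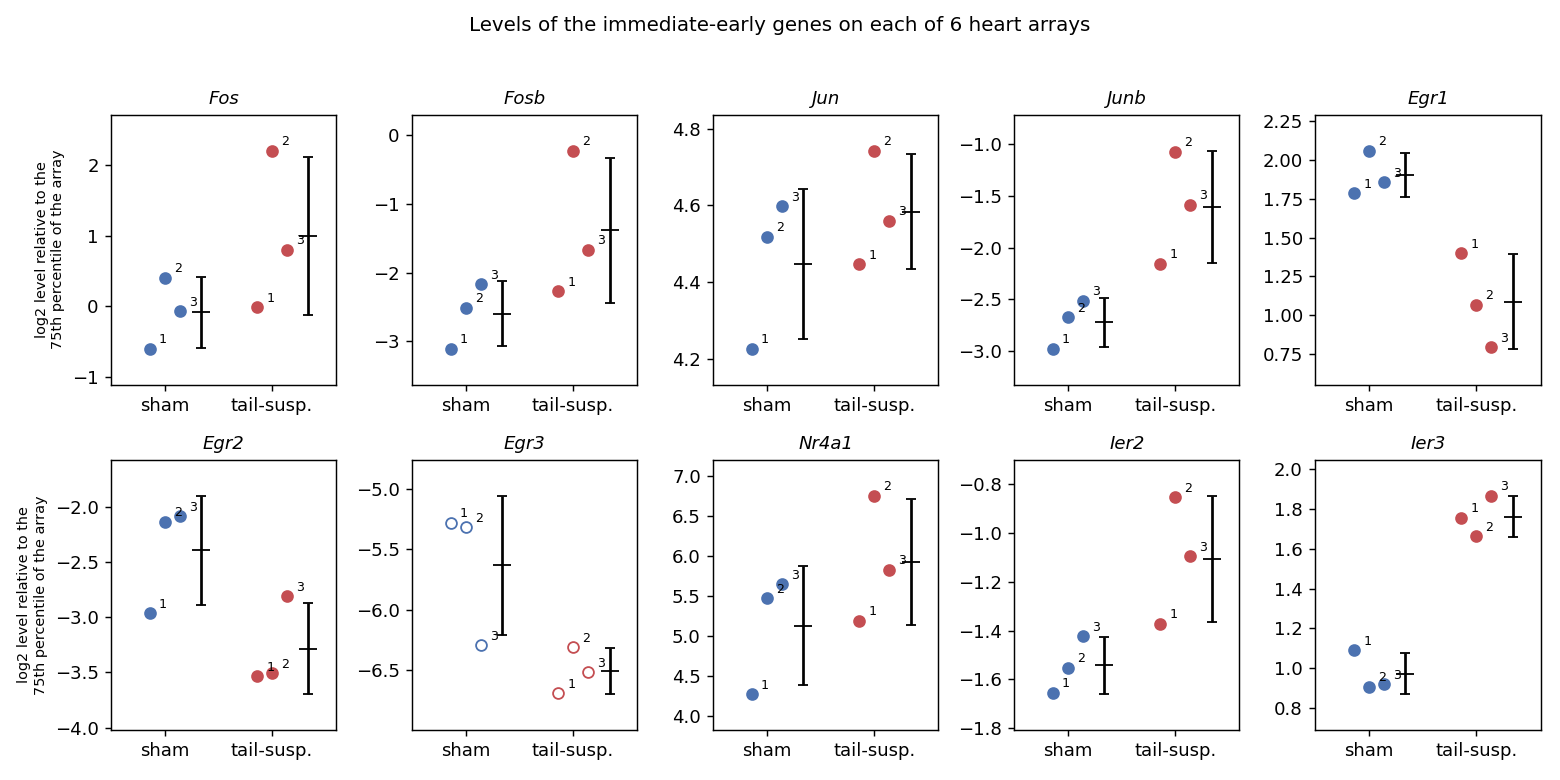
Log2 level of each gene relative to the 75th percentile of the array (vertical axes differ), for 3 sham and 3 tail-suspension arrays numbered by replicate, with the mean ± SD beside each group. Open points mark Egr3, which was not well above background on any array. Ier3, Junb and Ier2 lie apart upwards and Egr1 downwards, and tail-suspension 2 is the top point for 6 genes.

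Among the AP-1 genes, Fos gave processed intensities of 212, 423 and 288 in the sham hearts and of 338, 1739 and 654 in the tail-suspended hearts. Tail-suspension 2 was 2.65 times the next array after scaling, tail-suspension 3 was above all sham arrays, and tail-suspension 1 lay within the sham range. The difference was 1.09 (SE 0.56, 95% CI -0.24 to 2.42, limma adjusted p = 0.199), and it was 0.48 without tail-suspension 2. The 10 spots of Fos on an array varied by 2.15% to 7.01% (coefficient of variation), and the 6 arrays spanned 7.03-fold from the lowest to the highest. The 3 Fos spots with an outlier flag did not enter these means.

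Fosb, a close relative of Fos, gave 37.3, 56.0 and 67.0 in the sham hearts and 70.7, 322 and 118 in the tail-suspended hearts. After scaling, tail-suspension 1 fell just below sham 3, and tail-suspension 2 was again the highest array, 2.73 times the next. The difference was 1.21 (SE 0.52, 95% CI -0.04 to 2.46, limma adjusted p = 0.140), and 0.63 without tail-suspension 2.

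Jun, which encodes the main partner of Fos in AP-1, gave 6028, 7325 and 7305 in the sham hearts and 7432, 10079 and 8859 in the tail-suspended hearts. The groups overlapped, and all 6 arrays lay within a 1.43-fold range after scaling. The difference was 0.14 (SE 0.13, 95% CI -0.18 to 0.45, limma adjusted p = 0.490), so that a rise of more than 0.45 lay outside the interval. Within the first row of the slide the difference was -0.000929.

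Junb, a Jun relative with weaker activating properties, gave 40.9, 50.2 and 52.9 in the sham hearts and 76.4, 179 and 125 in the tail-suspended hearts. All 3 tail-suspended hearts were above all 3 sham hearts. Junb rose 2.16-fold, a difference of 1.11 (SE 0.27, 95% CI 0.46 to 1.77, limma adjusted p = 0.0355, exact permutation p = 0.1). The call was lost without sham 1 (adjusted p = 0.105), sham 2 (0.103), sham 3 (0.0619) or tail-suspension 3 (0.0985), with differences of 0.99 to 1.22. With the slide row as a block the difference was 0.56 (limma adjusted p = 0.290).

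Of the EGR genes, Egr1 fell and Egr2 did not pass the test. Egr1, a zinc finger factor induced by growth signals, gave 1111, 1334 and 1094 in the sham hearts and 900, 789 and 650 in the tail-suspended hearts. All 3 tail-suspended hearts were below all 3 sham hearts. Egr1 was 1.76-fold lower, a difference of -0.82 (SE 0.17, 95% CI -1.22 to -0.41, limma adjusted p = 0.0222, exact permutation p = 0.1). The call was lost without sham 1 (adjusted p = 0.0540), sham 2 (0.0828), sham 3 (0.0523) or tail-suspension 3 (0.0580). With the row as a block the difference was -0.50 (limma adjusted p = 0.200).

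Egr2, known for its part in Schwann cells and lymphocytes, gave 41.3, 72.9 and 71.2 in the sham hearts and 29.4, 33.1 and 53.5 in the tail-suspended hearts. Tail-suspension 1 and 2 were below all sham hearts, and tail-suspension 3 overlapped with sham 1. The difference was -0.89 (SE 0.30, 95% CI -1.60 to -0.18, limma adjusted p = 0.0766), and without sham 1 it was -1.18 with an adjusted p of 0.0440. Egr3 was not well above background on any of the 6 arrays, with 3.84 to 8.28 in the sham hearts and 3.30 to 4.75 in the tail-suspended hearts. These signals give no order between the groups, and Egr3 was not tested. Of 7 listed markers of nerve and glia, where Egr2 is active, 6 were well above background on all 6 arrays, and their summed level, in multiples of the 75th percentile, was 7.78 to 11.0 in the sham and 3.24 to 5.33 in the tail-suspended hearts. Of the 6 tested, 1 was called lower, and 1 had groups that did not overlap. Of all tested genes, 10.5% were called lower and 46.5% had groups that did not overlap. Among the suspended hearts the sums ran opposite to Egr2, at 5.33, 4.13 and 3.24 in tail-suspension 1 to 3, while Egr2 was lowest in tail-suspension 1 and highest in tail-suspension 3. The part of these cells in the values of Egr2 was not tested. In whole tissue, fewer cells of a type and less RNA per cell cannot be told apart.

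Nr4a1, the orphan nuclear receptor, was the most variable of the members among sham hearts, with 6236, 14184 and 15113, and gave 12483, 40765 and 21372 in the tail-suspended hearts. Sham 1 was the lowest array and tail-suspension 2 the highest, 1.90 times the next after scaling, while tail-suspension 1 lay below sham 2 and sham 3. The difference was 0.80 (SE 0.49, 95% CI -0.38 to 1.97, limma adjusted p = 0.277). It was 0.38 without tail-suspension 2 and 0.37 without sham 1.

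Of the IER genes, Ier2, a nuclear protein induced early by growth factors, gave 102, 109 and 113 in the sham hearts and 132, 208 and 176 in the tail-suspended hearts. The groups did not overlap, with tail-suspension 1 closest to the sham arrays. The difference was 0.44 (SE 0.15, 95% CI 0.08 to 0.79, limma adjusted p = 0.0802, exact permutation p = 0.1), which did not pass the adjusted threshold, and it was 0.17 within the first row.

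Ier3, a regulator of cell survival that is a known target of NF-kappaB, gave 686, 600 and 571 in the sham hearts and 1150, 1191 and 1369 in the tail-suspended hearts. The groups lay well apart, and neither spanned more than 1.15-fold after scaling. Ier3 rose 1.73-fold, a difference of 0.79 (SE 0.10, 95% CI 0.55 to 1.03, limma adjusted p = 0.00567, exact permutation p = 0.1). The call held with any 1 array left out. With the row as a block the difference was as large, 0.78, with a limma adjusted p of 0.0761.

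**Figure D2:**
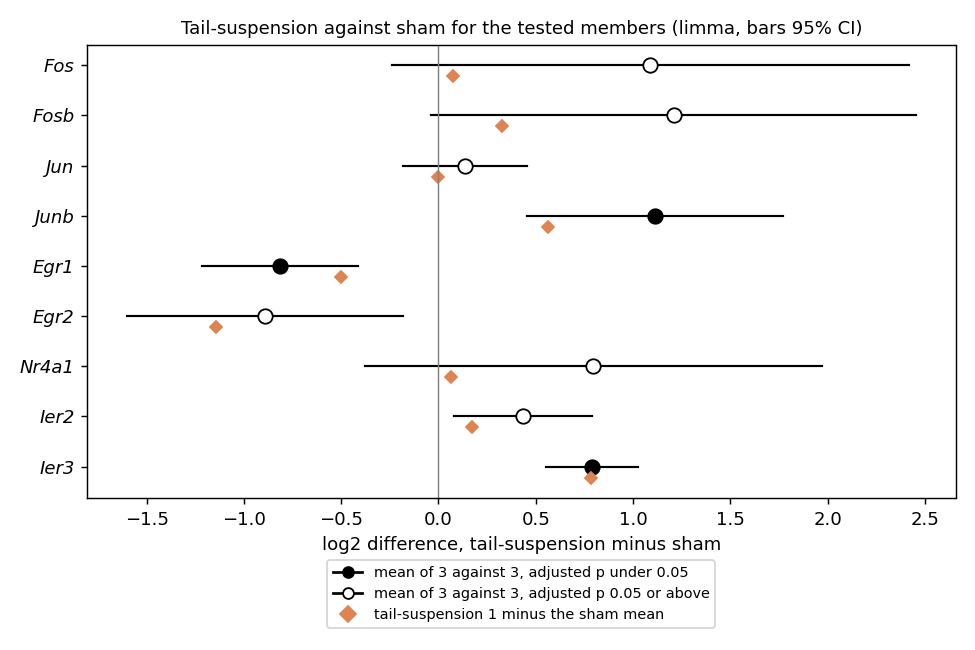
Log2 difference, tail-suspension minus sham, for the 9 tested members (circles, limma estimate of 3 against 3 arrays, bars 95% CI, filled where the adjusted p was under 0.05), with tail-suspension 1 minus the sham mean as diamonds. Ier3 gives 0.78 by tail-suspension 1 alone and 0.79 over all arrays, whereas Fos gives 0.08 against 1.09.

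Tail-suspension 1 and the other suspended hearts thus differed most in Fos, Fosb and Nr4a1. Relative to the sham mean, tail-suspension 1 stood at 0.08 for Fos, 0.33 for Fosb, 0.06 for Nr4a1 and 0.17 for Ier2, and at 0.56 for Junb, -0.50 for Egr1, -1.14 for Egr2 and 0.78 for Ier3. As a description of these 6 hearts, tail-suspension 2 was the highest of all arrays for 6 of 9 members and sham 1 the lowest for 6 of 9. Over all tested genes with a value on every array, tail-suspension 2 was the highest for 18.9% and sham 1 the lowest for 13.8%. Both held at once for the same 6 members, Fos, Fosb, Jun, Junb, Nr4a1 and Ier2, and for 4.15% of 17120 genes.

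The same order was seen in 8 of 75 other immediate-early response genes, namely Btg2, Atf3, Nr4a2, Mafk, Fosl2, Ier5, Sik1 and Klf4, which are named here after their values were seen. Nr4a2, a close relative of Nr4a1, gave 124, 316 and 359 in the sham hearts and 186, 2784 and 393 in the tail-suspended hearts, so that tail-suspension 2 was 6.21 times the next array. Atf3, a stress-induced bZIP factor, gave 335, 873 and 666 against 503, 5500 and 1788. In both genes tail-suspension 1 lay within the sham range, and neither passed the test (limma adjusted p = 0.450 for Nr4a2 and 0.269 for Atf3). Btg2, an antiproliferative early gene, gave 690, 940 and 1057 against 1080, 4263 and 2042 (limma adjusted p = 0.138).

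**Figure D3:**
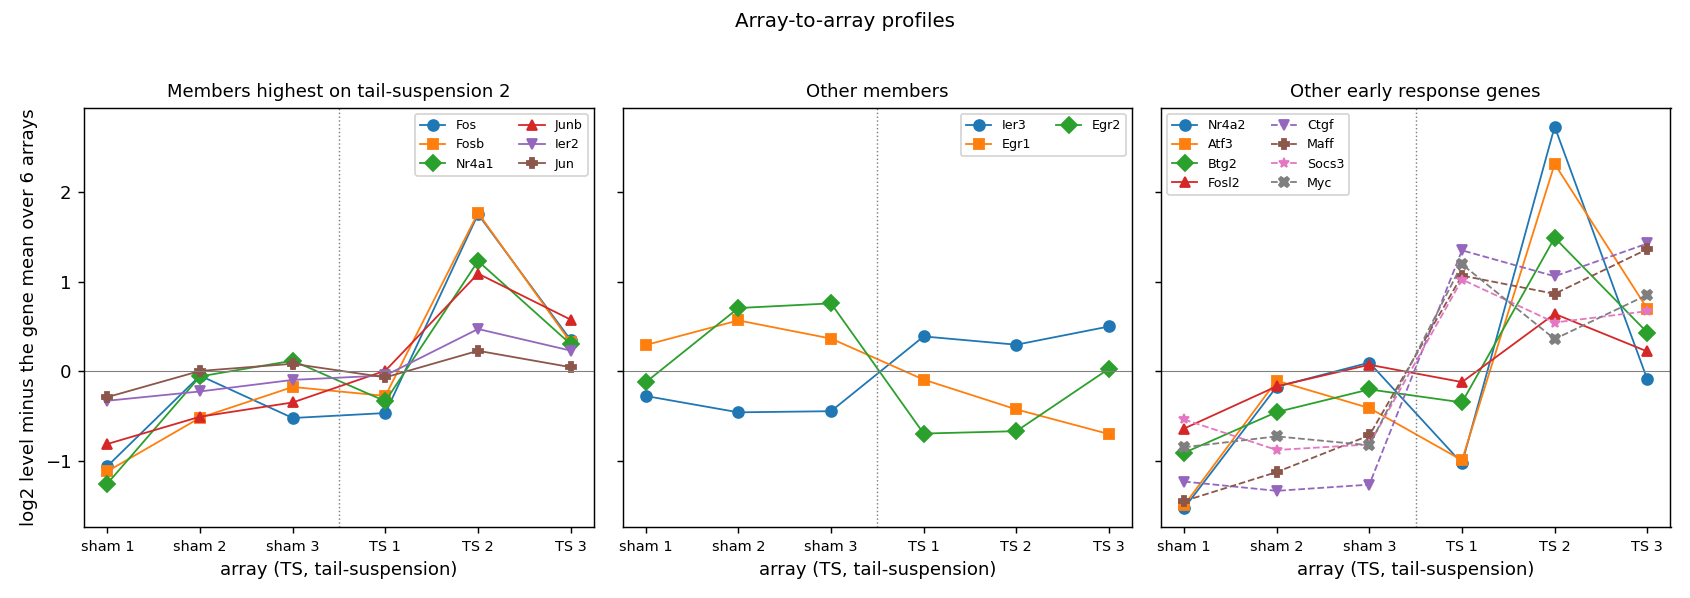
Log2 level of each gene minus its own mean over the 6 arrays, with lines that only join the points of 1 gene (replicates have no order). On the left, 6 members peak on tail-suspension 2, where Fos stands at 1.75 and Fosb at 1.77. Ier3, Egr1 and Egr2 in the middle do not. On the right, Nr4a2 reaches 2.73 on tail-suspension 2, while Ctgf, Maff, Socs3 and Myc (dashed) are raised on all 3 tail-suspension arrays.

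Likeness of profile was measured as the mean absolute difference, over the 6 arrays, from the mean centred log2 profile of the 9 tested members. That mean profile ran at -0.55, -0.06 and -0.03 in sham 1 to 3, and at -0.18, 0.64 and 0.18 in tail-suspension 1 to 3. Of the 5 nearest genes outside the members, Ifrd1, a transcriptional coregulator, lay at 0.0442, Fosl2, a Fos relative, at 0.0656 and 2010015L04Rik at 0.0767. The other two carry only database identifiers on the array. The median over all tested genes was 0.332. Fosl2 gave 839, 1156 and 1288 in the sham hearts and 1273, 2383 and 1777 in the tail-suspended hearts, a difference of 0.49 (SE 0.25, limma adjusted p = 0.193). Ifrd1 gave 2017, 2599 and 2664 against 2848, 5514 and 3788, a difference of 0.49 (SE 0.23, limma adjusted p = 0.172). Neither passed the test. Both were chosen for closeness to a profile that peaks on tail-suspension 2, so their own peak there follows from the choice.

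The spread between hearts of the same group was wide for most members. The suspended group lay in both slide rows, so its SD and the pooled SD also hold any difference between the rows. Fosb, Junb and Egr2 were read from dim probes, and the percentiles are over genes of all levels. Pooled over both groups, the SD of the log2 level was 0.87 for Fos, 0.82 for Fosb and 0.77 for Nr4a1, at percentiles 99.5, 99.2 and 99.1 of all tested genes. Egr2 stood at percentile 95.1 and Junb at 93.9. Thus 5 of 9 members were at or above the 90th percentile, an SD of 0.35. Egr1 stood at percentile 76.9, Ier2 at 68.7, Jun at 60.7 and Ier3 at 28.8. The median SD was 0.42 for the members and 0.14 for all tested genes, a ratio of 2.88. Among the sham hearts alone, Nr4a1, Fos, Egr2 and Fosb stood at percentiles 99.3, 97.4, 97.2 and 96.8, so a wide spread was also present without suspension. Of 75 other immediate-early response genes, 18 (24%) were at or above the 90th percentile, and the median SD was 0.23. For the upstream signal factors it was 0.11.

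**Figure D4:**
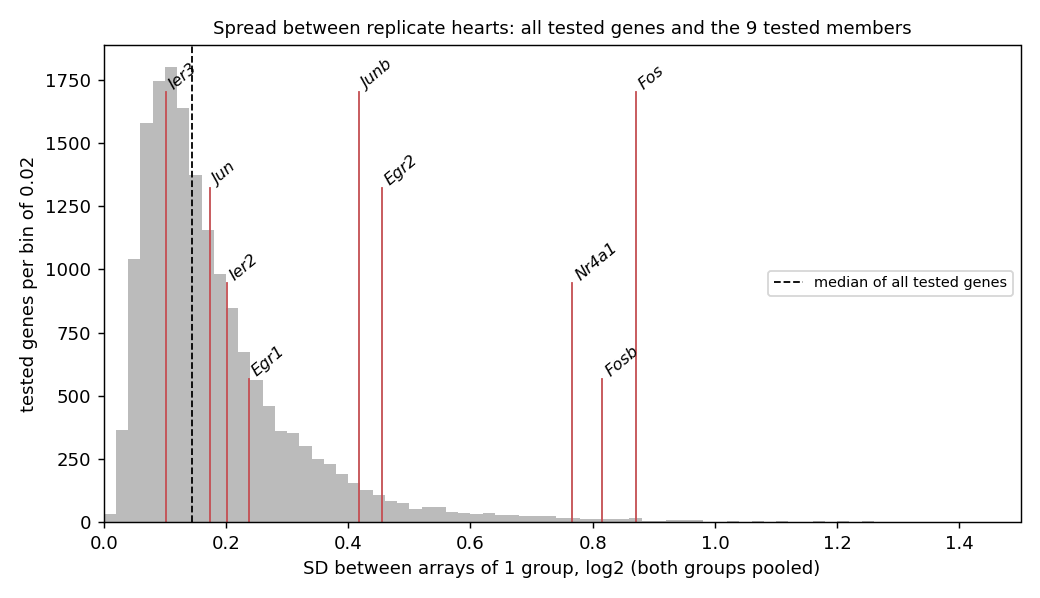
SD of the log2 level between arrays of 1 group, pooled over both groups, for all tested genes (grey, genes per bin of 0.02 log2) with the 9 tested members as lines. Fos, Fosb and Nr4a1 stand at 0.77 to 0.87, against a median of 0.14 (dashed), and Ier3 lies below that median. A total of 9 genes lie beyond the axis end of 1.5.

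The rest of the early response was read from 5 lists. Of 83 listed genes in 5 groups, 76 were tested, 18 rose and 7 fell, and their median difference was 0.22. Thus 32.9% were called, against 21.2% of all tested genes, of which 10.6% were called higher and 10.5% lower. The groups did not overlap for 34 of the 76, which is near the 46.5% of all tested genes. The share was 66.7% for the AP-1 and related bZIP factors and 20% for the EGR, NR4A and IER relatives. The rises numbered 10, 9 and 10 without sham 1, sham 2 or tail-suspension 3, and the falls 3, 2, 4 and 2 without sham 1, sham 2, sham 3 or tail-suspension 3. Among the AP-1 and related bZIP factors, 5 of 9 tested genes rose and 1 fell, Batf2 (-0.50, adjusted p = 0.0483). Maff, a small Maf protein, gave 134, 166 and 208 in the sham hearts and 809, 776 and 1093 in the tail-suspended hearts. It rose 4.58-fold (difference 2.20, SE 0.21, limma adjusted p = 0.00283), with no overlap. The other rises were those of Mafk (0.83), Jdp2 (0.65), Jund (0.46) and Batf (0.40, log2 differences), partners or relatives of the Fos and Jun proteins. Among the EGR, NR4A and IER relatives, 1 of 5 tested genes rose, Ier5 (0.62, limma adjusted p = 0.0246), and none fell, with Egr4 and Nr4a3 below the level for testing.

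Of 16 other early transcription regulators, 5 rose and none fell, so that 31.2% were called, against 21.2% of all tested genes. Csrnp1, a serum-induced nuclear factor, gave 1254, 1130 and 1837 in the sham hearts and 3684, 7013 and 7204 in the tail-suspended hearts, a rise of 3.58-fold (limma adjusted p = 0.0106). Myc, the growth regulator, gave 42.1, 45.6 and 40.1 against 183, 114 and 160, a rise of 3.04-fold (limma adjusted p = 0.00588). Both genes had every suspended heart above every sham heart, and Myc was lowest of the suspended hearts on tail-suspension 2, where Fos was highest. Zfp36, which destabilises AU-rich messages such as those of early genes, rose 3.20-fold (limma adjusted p = 0.0171). Only 2 of 3 sham arrays were well above background, so Zfp36 entered the test through the suspended group, where it was high. Id1 (0.61) and Id3 (0.45), inhibitors of helix-loop-helix factors, made up the 5.

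Of 27 tested early effectors, 3 rose and 4 fell, so that 25.9% were called, near the 21.2% of all tested genes. Ctgf, a matricellular growth factor, gave 4687, 4329 and 4284 in the sham hearts and 29691, 26820 and 34481 in the tail-suspended hearts, 5.88-fold higher (difference 2.56, SE 0.12, limma adjusted p = 0.000651). Gadd45b rose 2.27-fold (adjusted p = 0.0164) and Ppp1r15a, a phosphatase subunit of the stress response, 2.01-fold (adjusted p = 0.00277). Gadd45a fell by 1.02 on the log2 scale (adjusted p = 0.0142), so these Gadd45 relatives moved in opposite directions. Ccl2, a chemokine, fell by 0.93, Arc by 0.76 and Phlda1 by 0.45 (adjusted p = 0.0152, 0.0478 and 0.0404).

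Of 19 tested feedback inhibitors, 4 rose and 2 fell, so that 31.6% were called, against 21.2% of all tested genes. Dusp4, a MAP kinase phosphatase, gave 12.7 to 21.0 in the sham hearts, 2 of which were well above background, and 167, 94.2 and 115 in the tail-suspended hearts, 6.13-fold higher (limma adjusted p = 0.00450). Like Zfp36, Dusp4 entered the test only through the suspended group, where it was high, and its sham signals were close to background. Socs3, an inhibitor of cytokine signalling, rose 2.81-fold (adjusted p = 0.00338) and Nfkbia, the inhibitor of NF-kappaB, 2.19-fold (adjusted p = 0.0203), and Nfkbiz rose by 0.93 on the log2 scale. Dusp10 fell by 0.79 (adjusted p = 0.00754) and Tnfaip3 by 0.40 (adjusted p = 0.0410). With the slide row as a block, 6 of the 18 rises still passed, those of Ctgf, Dusp4, Maff, Myc, Ppp1r15a and Socs3.

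Of 27 tested upstream signal factors, the kinases and DNA-binding proteins that act on early gene promoters, none rose and 3 fell by limma. These 11.1% are near the 10.5% of all tested genes called lower, and 21.2% of all were called in either direction. At an unadjusted p under 0.05, 1 was higher and 8 lower, where 39.3% of all tested genes were under that level. Mapk8, a JNK kinase, fell by 0.82 (adjusted p = 0.0111) and Mapk14, the p38 kinase, by 0.60 (adjusted p = 0.0121). The median difference of the list was -0.14. Srf, the CArG box factor, did not pass the test by its brighter probe (-0.25, SE 0.13, limma adjusted p = 0.218) or by its other probe (0.15, SE 0.17, adjusted p = 0.554).

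**Figure D5:**
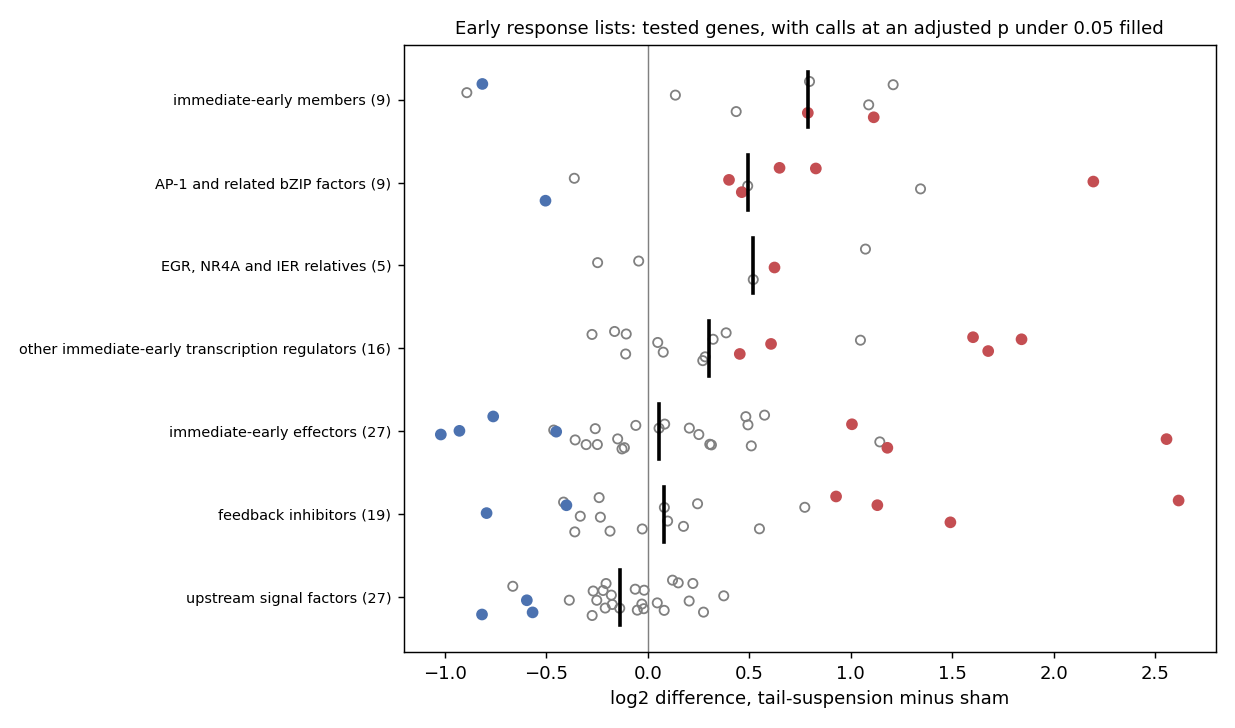
Log2 difference, tail-suspension minus sham, of every tested gene in the early response lists (number of tested genes in brackets), filled red where higher and blue where lower at a limma adjusted p under 0.05, with list medians as bars. The members' median is 0.79 with both slide rows taken in, and medians of the other lists run from -0.14 to 0.52. Vertical scatter within a list carries no value.

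For 3 other cell types the summed marker levels did not overlap between the groups. Of 7 neutrophil markers on the array, 4 were well above background on all 6 arrays, and the summed level was 143 to 171 in the sham hearts and 206 to 235 in the tail-suspended hearts, with 2 of 4 tested markers called higher. All 4 tested were higher without overlap and at an unadjusted limma p under 0.05, with a median log2 difference of 3.29. Of 7 erythroid markers, 5 were well above background on all arrays, with sums of 429 to 691 and of 106 to 345, and 0 of 5 tested markers passed the adjusted threshold in limma or in the methods' t-test. Of these, 4 were lower at an unadjusted limma p under 0.05. Of 8 lymphocyte markers, 4 were well above background on all arrays and Cd8a on none, with sums of at least 4.45 in the sham hearts, above all of the tail-suspended hearts, whose lowest sum was 3.67, and 2 of 5 tested markers were called lower. The sums of cardiomyocyte (4076 to 4404 and 3935 to 4346), fibroblast (279 to 296 and 276 to 349), endothelial (312 to 342 and 329 to 352), smooth muscle and pericyte (59.1 to 81.2 and 71.9 to 98.5), macrophage (30.3 to 40.4 and 34.4 to 54.3) and adipocyte markers (0.0873 to 0.409 and 0.264 to 2.76) overlapped between sham and tail-suspension. Tail-suspension 2, the array where Fos peaked, was the highest of the 6 in none of these sums. Single markers could still differ. Of 8 tested endothelial markers, 1 was called higher and 3 lower (50%, against 21.2% of all tested genes). Of 8 fibroblast markers, 1 was called lower. The median difference was -0.26 for endothelial and -0.63 for fibroblast markers. Groups did not overlap for 6 endothelial and 5 fibroblast markers, against 46.5% of all tested genes. Calls were 1 of 10 cardiomyocyte, 1 of 7 smooth muscle and pericyte and 1 of 7 macrophage markers. Of 13 tested clock genes 23.1% were called, near the 21.2% of all tested genes, and their sums overlapped (84.6 to 186 and 168 to 183). The 3 that rose were Per2 (log2 difference 1.99, limma adjusted p = 0.0134), Per1 (1.77, 0.0324) and Cry2 (0.55, 0.0403). The part of these cells and genes in the values of Junb, Ier3 and Egr1 was not tested.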

How the data were processed

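Hearts of 3 sham and 3 tail-suspended mice were profiled on 1-colour Agilent arrays. Per the labels and file headers, the authors extracted the spots with Agilent Feature Extraction 10.7.1.1, and the deposited intensity of each spot is background-corrected. They also deposited log2 values of the same arrays, which correlated above 0.999 with the log2 processed intensity and are quantile normalized or close to it. Control and outlier-flagged spots were left out, and spots of a probe were averaged on the log2 scale after subtraction of the array's 75th percentile. A probe was well above background where 50% or more of its spots had this flag. Tests used limma 3.58.1 in R 4.3.3 without covariates, at an adjusted p under 0.05. The brightest tested probe stood for its gene. Of these steps, the limma test alone was tried on simulated data.

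The members and lists were chosen with earlier results of these data known. Named are all members, up to 10 genes per direction with the largest changes past the threshold in the other early response lists, and the 5 nearest profiles; other genes, and those completing a count of 5 or fewer, were named after their values were seen. Lists covered AP-1 and related bZIP factors, EGR, NR4A and IER relatives, other regulators, effectors, feedback inhibitors, upstream factors, clock genes and markers of 10 cell types. Promoter sequences are from RefSeq on GRCm38.p6, and coordinates of probes are those of the files. Alternatives changed the background correction, scaling, filter, outlier spots, variance model, array weights, test, block, probe rule and arrays. Some genes of these lists are not reported here.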

Additional observations from a re-analysis of the deposited data

How the results depend on the processing

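The number of arrays limits the precision. Directions held in every alternative for the 9 tested members except Jun, at -0.000929 with the slide row as a block. Ier3 passed in 19 of 20 alternatives, Egr1 in 13, Junb in 12, Egr2 in 3, and Fos, Fosb, Jun, Nr4a1 and Ier2 in 0. Some of the 20 could hardly change a member. Each has 1 probe, so the mean and the dimmest of the tested probes gave the same difference as the main fit. Outlier spots were flagged for Fos alone. Under normexp, the differences of the dim probes of Junb, Fosb and Egr2 were 0.55, 0.62 and -0.51.

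Members called higher and lower numbered 2 and 1. They numbered 1 and 2 with normexp, 1 and 0 without a filter on dim probes, 1 and 0 with the methods' t-test, adjusted by Benjamini-Hochberg, (2 and 1 unadjusted), and 0 and 0 with the row as a block (1 and 2 at an unadjusted p under 0.05, limma). Leaving out 1 array gave 1 to 2 higher and 0 to 1 lower. The other early response genes, 18 higher and 7 lower, gave 9 and 1 without a filter, 9 and 1 by the t-test and 6 and 0 with the row as a block (21 and 5 unadjusted), and 9 to 18 higher and 2 to 5 lower with 1 array left out. Over all probes, 3023 were higher and 2683 lower. These became 1041 and 790 without a filter, 1532 and 1248 by the t-test and 320 and 177 with the row as a block. Array weights gave 4355 lower. With 1 array left out, 965 to 2932 were higher and 726 to 2580 lower. The ratio of the members' spread to that of all genes was 1.84 with normexp. The cause of these shifts was not tested.

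The replicate numbers were not used as pairs. Over tested probes with a value on every array, deviations of same-numbered arrays correlated at -0.02, -0.02 and 0.05. Among the 9 tested members, however, replicate 1 was the lowest sham heart for 8 and the lowest suspended heart for 7. With the replicate as a block the SE was 0.25 for Fos and 0.23 for Nr4a1 (limma adjusted p = 0.0610 and 0.0883), against 0.56 and 0.49 without it. With the replicate block, 2 members were called lower, Egr2 being added, 4 other early response genes were lower, and 1714 probes were higher and 1403 lower.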
